A study of Mus musculus with 15 samples.

Results

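B2m encodes beta-2-microglobulin, the light chain of major histocompatibility complex (MHC) class I molecules. It was followed with 1 oligonucleotide probe of 59709 noncontrol probes, and was 1 of the 112 genes to which a symbol could be given. The probe was chosen by its RefSeq accession (NM_009735.3) and not by any measured value. The gene itself was chosen with earlier results of these data known. All samples were liver from the inbred mouse strain C57BL/6 and covered 5 stages, namely E12.5, E14.5, E17.5 (E for embryonic day), neonatal, and adult at 8 weeks. Each stage had 3 arrays, 15 in all, and no treatment or genetic change is given for any group. The RNA came from whole liver, was depleted of ribosomal RNA, copied with random primers into Cy3-labelled cRNA and hybridised in 1 colour to Agilent arrays. Whether each array had its own animal or a pool is not given, so p-values measure the spread between these samples only, which may be technical.

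An MHC class I molecule is a membrane-spanning heavy chain held together with B2m, and without B2m most heavy chains do not reach the cell surface. The complex carries peptides made inside the cell to CD8 T cells, and almost all nucleated cells make it. B2m also pairs with relatives of the heavy chains, among them the neonatal Fc receptor, the iron regulator HFE, CD1d and MR1. The gene is also in common use as a reference ("housekeeping") gene for RNA measurements. Before birth the liver makes most blood cells, and hepatocytes come to fill most of the organ as that role ends.

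The regulatory sequence just before the gene is shown because it is the known entry point of the signals that set MHC class I genes. It is the 250 bases before the annotated start, from RefSeq (assembly GRCm38.p6, chr2:122147437-122147686, plus strand; the arrays were designed on an earlier build, and no array coordinate is used), with the matches of 5 motifs in capitals.
B2m promoter: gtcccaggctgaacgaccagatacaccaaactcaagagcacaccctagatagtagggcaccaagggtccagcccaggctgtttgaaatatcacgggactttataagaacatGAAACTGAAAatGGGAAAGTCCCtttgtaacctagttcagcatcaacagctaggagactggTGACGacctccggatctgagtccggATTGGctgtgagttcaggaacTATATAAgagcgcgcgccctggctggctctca
From left to right the capitals mark the core of an interferon response element (GAAA and again GAAA after any 2 bases, at -139 from the start), the core of an NF-kB site (GGGA and TCC with any 3 bases between, at -127, in overlapping matches on both strands), the core of the CRE-like X2 box (TGACG, at -78), the inverted CCAAT of the Y box (ATTGG, at -53) and a TATA box (TATATAA, at -32). Both strands were searched. Among 32851 promoter windows of the same length, 2.98% held the interferon element core, 3.86% the NF-kB core, 17.8% TGACG, 33.8% ATTGG and 3.04% TATATAA. As background, X and Y boxes are shared by MHC class I promoters and B2m, and interferon and NF-kB raise these genes in many cells. The arrays measured RNA, so these matches describe the sequence only.

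B2m signal was higher at each later stage, and adult liver had the highest level by a clear margin. The processed signal, the scanner software's background-subtracted spot brightness on a linear scale, averaged over the spots of an array, was 42877, 38839 and 35282 on E12.5 replicates 1, 2 and 3. The E14.5 arrays gave 55295, 64019 and 52795, the E17.5 arrays 66178, 60009 and 82379, and the neonatal arrays 103279.6, 103475 and 97042. In adult liver it was 187614, 194431 and 177108. Before any scaling, every array of E14.5 lay above every array of E12.5, while E14.5 and E17.5 overlapped. Every neonatal array lay above every E17.5 array, and every adult array above every neonatal one. Of all features tested, 22.1% had every unscaled E14.5 array above every E12.5 array, 15.2% every neonatal above every E17.5 array and 14.9% every adult above every neonatal array. The stage means were 38999 ± 3799.8 (SD, n = 3) at E12.5, 57369.7 ± 5892 for E14.5, 69522 ± 11554 for E17.5, 101266 ± 3659 in neonatal and 186384 ± 8727 in adult liver. In a bulk sample, more cells that contain B2m RNA and more B2m RNA per cell cannot be told apart.

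**Figure D1:**
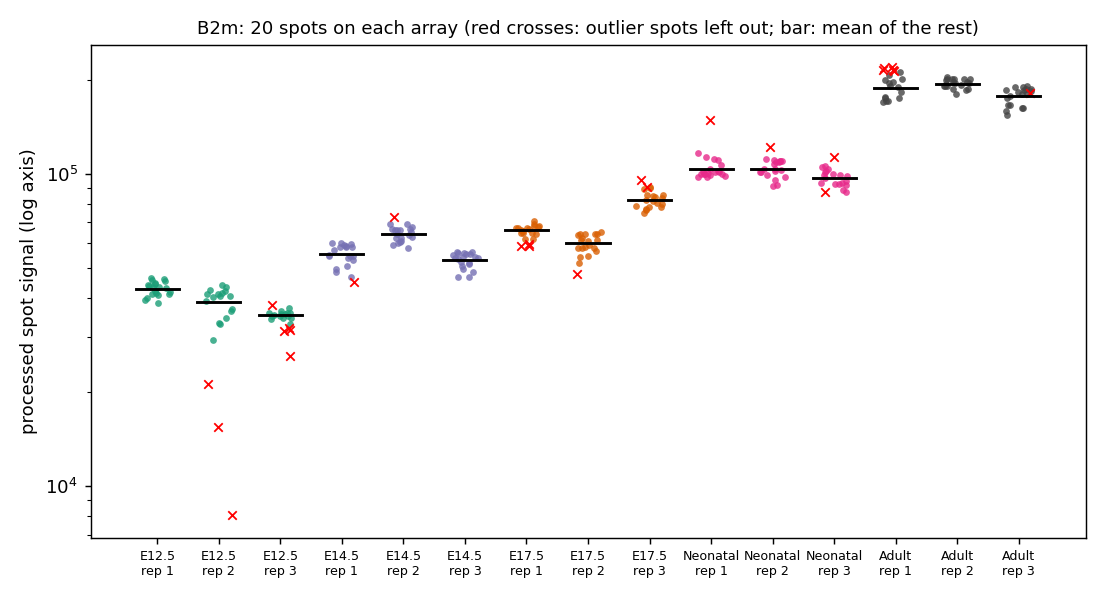
Processed signal (log axis) of the 20 B2m spots on each of the 15 arrays, coloured by stage, with a bar at the mean of the spots used and red crosses on the 26 outlier spots left out. The spots of 1 array lie close together, and the array means go from 35282 at E12.5 to 194431 in adult liver.

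The probe sits on each array 20 times, so the measurement error within an array can be read directly. Of 300 spots in all, 26 were marked as outliers by the scanner software and left out, which kept 15 to 20 spots per array. No B2m spot was saturated and all 20 on each array were well above background, whose local median was 21.0 to 35.2. The coefficient of variation (CV) between spots of an array was 5.57% on the median array, lowest at 2.79% on E12.5 replicate 3 and highest at 10.8% on E12.5 replicate 2. The latter array also held the dimmest outlier spot, at 8064. The standard error of an array's mean on the log2 scale was 0.01 to 0.04. Averaged over arrays, the 20 positions deviated from their array's mean by between -0.05 and 0.06 on the log2 scale. The deviation of a position varied between arrays with an SD of 0.03 to 0.13, so the averages hide larger deviations on single arrays. By median CV, B2m was the tenth lowest of the 15 probes with 20 spots, which ran from 3.97% for the glycolytic enzyme gene Gapdh to 13.6% for the lactate dehydrogenase-like gene Ldhal6b. Spots of an array share its RNA and count as 1 value below.

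For tests between stages each array's log2 signal was set relative to its own 75th percentile over all noncontrol probes. On this scale E12.5 replicates 1, 2 and 3 gave 8.12, 7.07 and 6.93 for B2m, the E14.5 arrays 7.75, 7.73 and 7.55, and the E17.5 arrays 7.83, 8.23 and 8.69. It was at 8.92, 8.84 and 8.65 in neonatal and at 10.18, 9.71 and 10.26 in adult liver. E12.5 replicate 1 stood above all E14.5 arrays on this scale. Its 75th percentile was 155, against 288 and 289 on the other E12.5 arrays, whereas its unscaled B2m signal was near theirs. For other genes the unscaled signal of that array stood apart or not, depending on the gene. Actb was at 15854, against 55142 and 43710 on E12.5 replicates 2 and 3, and Hsp90ab1 at 9084, against 38472 and 39592. Hprt was at 42989, against 43502 and 43957, and Tfrc at 112036, against 113800 and 107146. The cause was not tested. The 75th percentile was between 145 and 301 over all arrays, and was lowest on adult replicate 3. The stage means were 7.37 ± 0.65 (SD, n = 3) at E12.5, 7.68 ± 0.11 for E14.5, 8.25 ± 0.43 for E17.5, 8.81 ± 0.14 in neonatal and 10.05 ± 0.29 in adult liver. The spread within stages was 0.38 after scaling and 0.14 before it (pooled SD, log2), against a median of 0.44 over all scaled features, so the division by the 75th percentile added to the spread of this probe. Both scales are given for some differences below, and the scaled value alone for the others, although the scales differed there too. Unscaled, adult liver was 3.26-fold above E14.5 and 2.70-fold above E17.5, and neonatal liver 1.77-fold above E14.5. The unscaled log2 difference was 0.56 from E12.5 to E14.5 and 0.27 from E14.5 to E17.5.

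**Figure D2:**
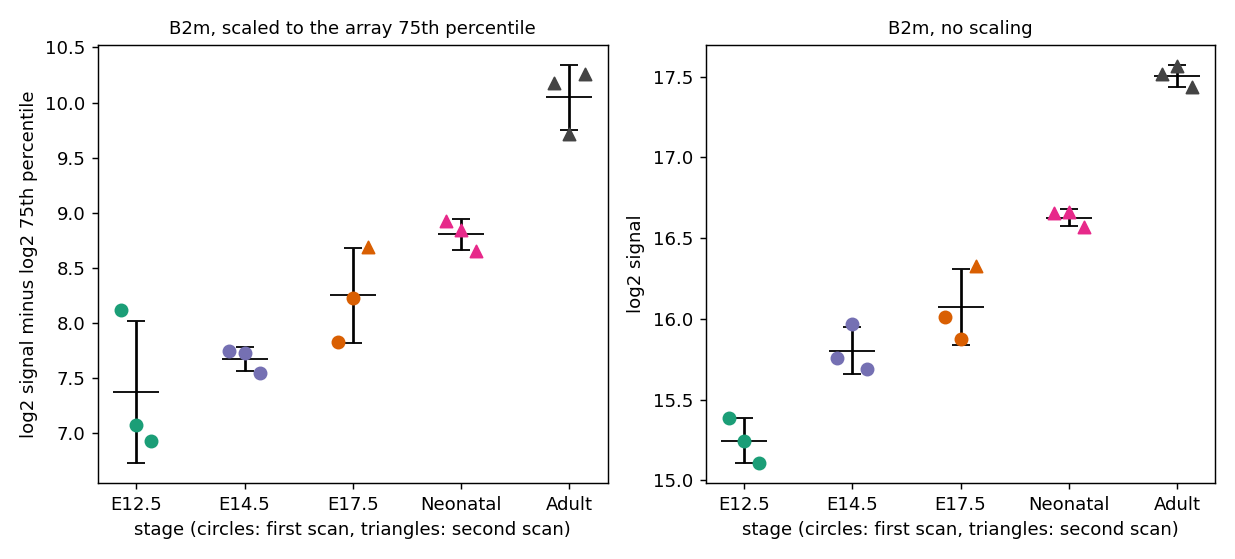
B2m on each array by stage, as log2 signal minus the log2 75th percentile (left) and as unscaled log2 signal (right), with the mean and SD of 3 arrays; circles are arrays of the first scan and triangles arrays of the second. Stage means go up from left to right on both scales, and E12.5 replicate 1 (8.12 scaled) stands apart only after scaling.

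B2m differed between the stages by the moderated F test over all 5 of them (limma, F = 22.2, adjusted p = 5.16e-05), as did 61.0% of the 37363 features tested. A larger F was found for 13.4% of features. Its stage means were in rising order over all 4 steps, a pattern found in 2584 of 37130 features (6.96%), most of which carry no gene name. A difference was called at an adjusted p (limma, Benjamini-Hochberg over all features) below 0.05.

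Adult liver was above each other stage. All adult arrays were read in the second scan and all E12.5 and E14.5 arrays in the first, as set out below. B2m rose 6.39-fold from E12.5 to adult (log2 difference 2.68 ± 0.32, SE; 95% interval 1.99 to 3.36; adjusted p = 9.73e-06). Of all features 25.7% were called up in that comparison, and 9.01% had a larger rise. The median over all features changed by -0.04. The fold was 5.19 from E14.5 (2.37 ± 0.32, adjusted p = 3.05e-05, with 26.6% of features called up). It was 3.48 from E17.5 (1.80 ± 0.32, adjusted p = 0.000565, with 19.1% called up). It was 2.37 from neonatal liver (1.24 ± 0.32, adjusted p = 0.0107, with 25.9% of features called in either direction, 4675 of 37363 up, and a median of 0.17 over all features), and this call was lost when arrays were scaled to their medians (1.15, adjusted p = 0.0575). The lowest adult array (9.71) was above the highest of the other 12 (8.92), as was so for 11.3% of features. Without scaling the rise from E12.5 was 4.79-fold and that from neonatal liver 1.84-fold, both called (17.3% and 4.96% of features called up). Relative to the median of all features, the log2 rise from E12.5 was 2.71, and it was 2.37 after quantile normalization and 2.62 after another background correction (normexp).

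The fetal and neonatal stages were less well separated. Neonatal liver was above E12.5 (2.70-fold; log2 difference 1.43 ± 0.32, adjusted p = 0.00289, 19.5% of features called up) and above E14.5 (2.19-fold; 1.13 ± 0.32, adjusted p = 0.0111, 21.8% called up). The latter call was lost when arrays were scaled to their medians (1.04, adjusted p = 0.0529). Neighbouring stages before the adult did not pass the test. From E12.5 to E14.5 the log2 difference was 0.30 (95% interval -0.38 to 0.98, adjusted p = 0.742), and 1.82% of features were called up. From E14.5 to E17.5 it was 0.58 (-0.11 to 1.26, adjusted p = 0.302, 6.29% called up), although every E17.5 array lay above every E14.5 array, as was so for 16.1% of features. From E17.5 to neonatal it was 0.56 (-0.13 to 1.24, adjusted p = 0.240, 8.40% called up). Each of these intervals includes 0 and reaches 0.98 or above. From E12.5 to E17.5 it was 0.88 (0.19 to 1.56, adjusted p = 0.0760, with 10.1% of features called up). That comparison was called without scaling (0.83, adjusted p = 0.0263, 7.24% called up) without E12.5 replicate 1 (1.25, adjusted p = 0.00832) and without E17.5 replicate 1 (1.09, adjusted p = 0.0490). In a two-sided exact permutation test of 3 arrays against 3, each of the 6 called differences gave p = 0.1, the smallest such a test can give.

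The arrays were read in 2 scans, taken here as 2 slides, and stage and scan overlap only at E17.5. E12.5, E14.5 and E17.5 replicates 1 and 2 were in the first scan, and E17.5 replicate 3 with the neonatal and adult arrays in the second. E17.5 replicate 3, at 8.69, lay within the range of the neonatal arrays (8.65 to 8.92) and above both other E17.5 arrays. It was also the highest of the 3 E17.5 arrays for each of the 11 common reference genes measured (such as Actb and Gapdh), scaled and unscaled. Within the second scan, adult liver was above neonatal (1.24, adjusted p = 0.00533). The adult mean lay 1.36 and the neonatal mean 0.11 above that 1 E17.5 array (adjusted p = 0.0179 and 0.901, with the spread taken from the neonatal and adult arrays only and the lone array assumed to vary like them). Within the first scan E14.5 differed from E12.5 by 0.30 and E17.5 from E14.5 by 0.35 (adjusted p = 0.721 and 0.651). With the scan as a block, which rests on that 1 array, the rise from E12.5 to adult was 2.01 (adjusted p = 0.0116), that from E14.5 1.71 (adjusted p = 0.0283), and those from E12.5 and E14.5 to neonatal liver were 0.77 and 0.47 and no longer called (adjusted p = 0.379 and 0.630). For the rises from E12.5 and E14.5 into neonatal and into adult liver, stage and scan can be separated only through E17.5 replicate 3.

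**Figure D3:**
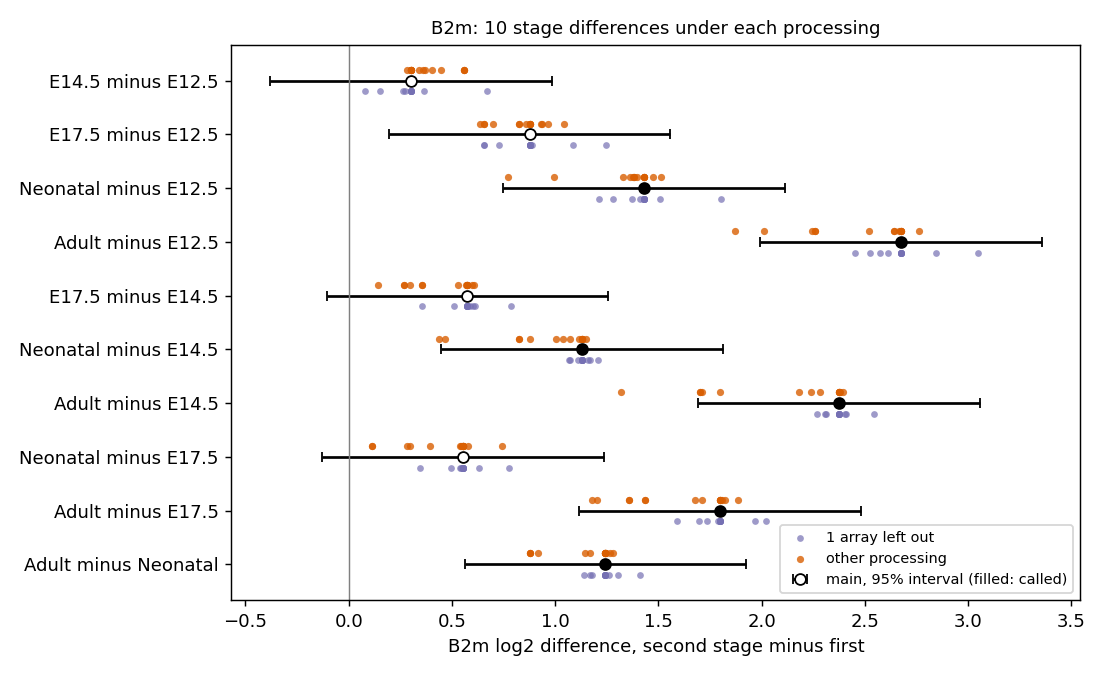
B2m log2 difference for the 10 pairs of stages: the main value with its 95% interval (filled where called), the values on leaving out 1 array (below each) and those under other processing (above each). The adult differences stay right of 0 throughout, from 0.88 (adult against neonatal without scaling) to 3.05 (adult against E12.5 without E12.5 replicate 1).

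The probe was among the brightest on the arrays, and in adult liver it was near the top. Ranked within each array among 59585 to 59702 probes with a value, its place from the top was 764, 991 and 1190 on the E12.5 arrays, 743, 705 and 792 on the E14.5 arrays and 493, 451 and 450 on the E17.5 arrays. The neonatal arrays gave 243, 344 and 398, the adult arrays 24, 31 and 29. A rank needs no scaling between arrays, but brightness also depends on a probe's own binding, so it is no order of RNA amounts between genes. On the adult arrays B2m had 65.8%, 79.6% and 53.8% of the signal of the brightest probe. Whether signals this bright still grow in proportion to RNA was not tested.

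Since B2m serves as a reference gene, its course was set against the other common reference genes. Of 40 on the list 11 had a named probe, each with 20 spots, and a difference between 2 genes within an array does not depend on the scaling of that array. From E12.5 to adult liver each of the 11 changed less than B2m or fell (limma on within-array differences, 11 of 11 called; of all features 81.1% were called lower than B2m). B2m gained 2.21 ± 0.24 (log2, SE) on Gapdh (4.62-fold, adjusted p = 1.49e-06), 2.63 ± 0.23 on Ppia, a peptidyl-prolyl isomerase gene (adjusted p = 2.05e-07), and 2.75 ± 0.41 on Actb, beta-actin (adjusted p = 2.57e-05). It gained 3.44 ± 0.24 on Hprt, a purine salvage enzyme gene (adjusted p = 3.26e-08), and 4.70 ± 0.32 on Rpl13a, a ribosomal protein gene (adjusted p = 2.14e-08). The gain was largest on Tfrc, the transferrin receptor, at 6.06 ± 0.29 (66.9-fold, adjusted p = 1.02e-09). From neonatal to adult liver all 11 were again called lower than B2m (46.6% of all features), with B2m gaining from 0.94 on Gapdh to 3.91 on Tfrc.

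Tested on their own from E12.5 to adult liver, 0 of the 11 reference genes were called up and 5 were called down. Of all features 25.7% were called up and 25.1% down. The median log2 change of the 11 was -0.77. Gapdh (0.47, limma, adjusted p = 0.153) and Ppia had values above 0. From E14.5 to adult liver Gapdh was called up (0.76, adjusted p = 0.0271, with 26.6% of features called up). Under each of 5 other scalings or background corrections, 0 were called up from E12.5, 5 to 7 were called down and all 11 stayed below B2m. Actb (-0.08 ± 0.29, adjusted p = 0.848) and Ppia (0.05 ± 0.27, adjusted p = 0.897) had the values nearest to 0, with Ppia below 0 after quantile or median scaling and unscaled. Before birth, 10 of 11 were called lower than B2m from E12.5 to E17.5 (36.1% of all features), with B2m gaining from 0.88 on Gapdh (adjusted p = 0.0125) to 1.87 on Rpl13a (adjusted p = 0.000880), and Actb was not (0.99, adjusted p = 0.0664). Without E12.5 replicate 2 or 3 that count was 6 or 5. Over the shorter steps, 0 of 11 were called lower than B2m from E12.5 to E14.5 (3.91%) and 1, Rpl13a, from E14.5 to E17.5 (5.59%). From E17.5 to neonatal liver 2 of 11 were called lower than B2m, which is near the share over all features (18.1%). These were Tfrc and Tuba1b, an alpha-tubulin gene. All such tests share the same B2m values, so the genes in a count are not separate results. The counts over the shorter steps moved with 1 array: without E12.5 replicate 1, 8 of 11 were called lower than B2m from E12.5 to E14.5 and 7 from E14.5 to E17.5. Without E14.5 replicates 1, 2 or 3, E17.5 replicates 2 or 3, neonatal replicates 2 or 3 or adult replicates 1 or 3, the count from E14.5 to E17.5 was 0. The count from E17.5 to neonatal liver was 1 without E17.5 replicate 1 or 2 or any 1 neonatal array. By the range of its stage means, B2m was the third most variable of the 15 probes with 20 spots (2.68), after Gk, glycerol kinase (3.65), and Tfrc (3.39), and before Tuba1b (2.41). The narrowest were Actb (0.29) and Ppia (0.31).

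**Figure D4:**
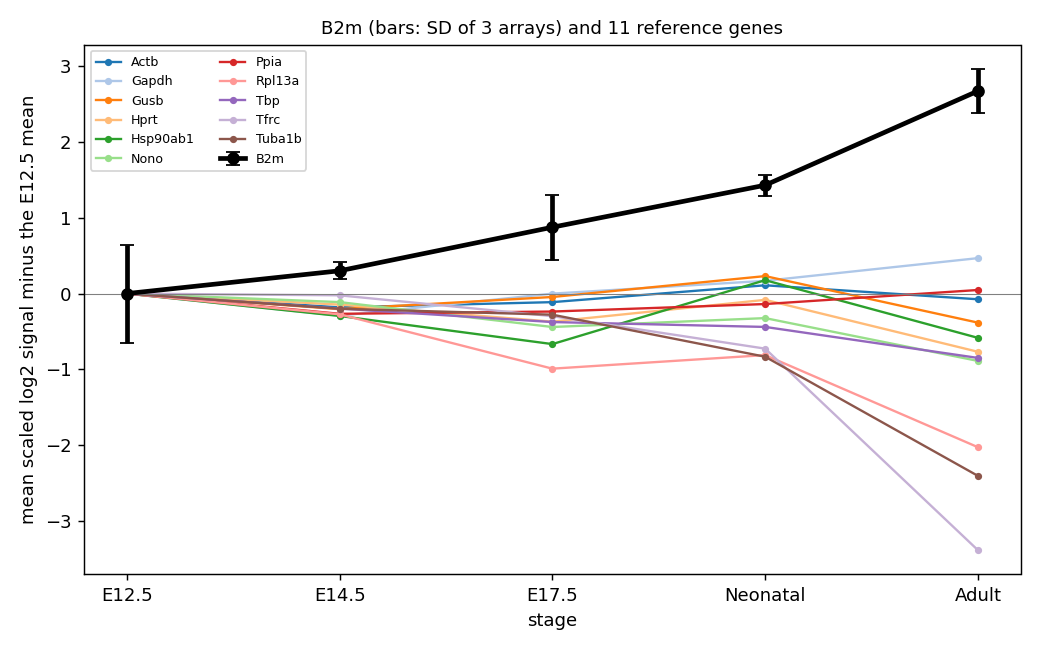
Mean scaled log2 signal at each stage minus the E12.5 mean, for B2m (thick black line, bars are the SD of 3 arrays) and the 11 reference genes measured. B2m reaches 2.68 above its E12.5 mean in adult liver, the highest reference gene, Gapdh, 0.47, and the lowest, Tfrc, -3.39.

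Genes that work with B2m could not be followed by name. Of the 50 other genes listed for the MHC class I pathway (heavy chains, partners of B2m, peptide loading, immunoproteasome, regulators), 0 had a named probe here. Of 74 cell type markers listed, 1 had: Tfrc, the iron import receptor that red cell precursors carry in large amounts. No hepatocyte (0 of 12), leukocyte (0 of 12) or macrophage (0 of 7) marker could be read by name, so neither the tissue label nor the makeup of the liver was checked against its markers. Tfrc went against B2m: its signal was 112036, 113800 and 107146 on the E12.5 arrays and 9088, 11436 and 4824 on the adult arrays (log2 change -3.39 ± 0.34, adjusted p = 1.78e-06). The part of a changing share of red cell precursors in the B2m values was not tested.

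Features with a gene symbol were ordered by how like their course was to that of B2m. Likeness was the Pearson correlation over the 15 arrays, given as a description: the arrays fall into 5 stages and share their scaling. The most alike were Tmlhe (r = 0.93; Spearman 0.84), a carnitine synthesis enzyme gene, H2ac18 (0.93; 0.95), a core histone H2A gene with near-identical copies that a probe may not tell apart, and Gk (0.92; 0.90). Their means rose from 0.41 to 2.77, from 2.71 to 7.64 and from -1.33 to 2.33 between E12.5 and adult liver. Each was called up, as were 25.7% of all features. They were chosen for likeness to B2m, which itself rose, so these rises are no separate result. Csprs (0.89) and Vmn1r157 (0.88) followed, both at the lower limit of the signal at E12.5. The most opposite were Gm4312 (-0.92), Rpl13a (-0.85) and H2ac23 (-0.85), a histone H2A gene. A correlation above 0.9 was found for 3 of the 78 with a gene symbol. Over all 37362 other features, 1206 (3.23%) had such a correlation, so the share among those with a symbol was near that over all features. The most alike probes named for long intergenic noncoding RNA (lincRNA) exons were MM9LINCRNAEXON11467-_P1 (0.98), its opposite-strand partner MM9LINCRNAEXON11467+_P1 (0.97) and MM9LINCRNAEXON11400+_P1 (0.97).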

How the data were processed

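The deposited scanner files give each spot's linear intensity after the software's background subtraction and spatial detrending, per the file headers, with no scaling between arrays; 6 of the 7 arrays of the second scan and none of the first also had a multiplicative detrending step. The file headers name Feature Extraction 11.0.1.1, the submitters' processing notes 10.7.3.1. The authors' deposited table of log2 values (29158 rows) lists none of the 15 probes with 20 spots, B2m among them, so it gave no B2m value.

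Control and outlier spots were left out, spots of a probe averaged, and log2 signal minus the array's 75th percentile was used. Features well above background (for a probe with several spots, on at least 0.5 of them) on all 3 arrays of 1 or more stages entered the test, 37363 of 59709 (233 with a missing value), with limma 3.58.1 in R 4.3.3: 1 fit over 15 arrays, a mean per stage, 10 pairs of stages, no block, two-sided. Within-array differences from B2m were fitted the same way. The fits were tested on simulated data. Of all spots 50.9% to 62.9% were well above background, 80.9% on E17.5 replicate 1. Arrays have no read depth; the number of arrays limits the precision. Symbols came from RefSeq accessions (116 of 123 matched, assembly GRCm38.p6). Alternatives were other scalings, normexp, other summaries of spots, other filters, the scan and the replicate number as blocks, and each array left out. Normexp (offset 50) used median spot and background signals, since the mean signals planned for it were not available here. The genes named were B2m, members of the listed reference genes, pathway and markers, and the features most and least like B2m by correlation (5 and 3 with a symbol, 3 lincRNA probes); genes added for contrast (Gk and Ldhal6b within the 15 probes) were chosen after their values were seen. The gene and the lists were chosen with earlier results of these data known.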

Additional observations from a re-analysis of the deposited data

How the results depend on the processing

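Of 438 recalculations over 17 results, 400 were scored as the same, 26 as weaker, 12 as stronger and 0 as reversed. For a stage difference, the same meant keeping direction and side of the threshold. For the test over 5 stages it meant the side of the threshold, and for a reference gene count an equal or similar count. Neither of these could be scored as reversed. Many recalculations, such as leaving out an array of another stage, cannot move a stage difference, so their direction was fixed in advance. The rises from E12.5, E14.5 and E17.5 to adult liver and the test over 5 stages kept their calls throughout (log2 1.87 to 3.05, 1.32 to 2.54 and 1.18 to 2.02). From E12.5 to E17.5, B2m was called with quantile normalization (1.04), the percentile over probes detected on all arrays (0.97), no scaling (0.83), normexp (0.93), no scaling with the scan as a block (0.70) and no scaling with the replicate block (0.83), the last 2 chosen after seeing the data; on leaving out 1 array it was 0.66 to 1.25, called without E12.5 replicate 1 or E17.5 replicate 1. From E12.5 to neonatal the call was lost with the scan as a block (0.77; 0.99 unscaled), and from E14.5 to neonatal with that block (0.47; 0.44 unscaled) and with scaling to the median (1.04, adjusted p = 0.0529). From neonatal to adult it was lost with scaling to the median (1.15, adjusted p = 0.0575; over its alternatives 0.00151 to 0.0575). The cause was not tested. Reference genes called lower than B2m from E12.5 to E14.5 numbered 0, 1 with normexp and 0 to 8 on leaving out 1 array; from E12.5 to E17.5 10, and 5 to 11 on leaving out 1 array; from E14.5 to E17.5 1, 5 with normexp, 0 with the scan or the replicate block and 0 to 7; from E17.5 to neonatal 2, 1 with the scan or the replicate block and 1 to 2. The table of the authors could not be used for B2m.

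Replicate numbers are shared between stages, and deviations of same-numbered arrays correlated at a median of 0.01 (30 pairs, -0.24 to 0.48, 7 above 0.1). For arrays with other numbers the median was -0.004 (60 pairs, -0.42 to 0.31, 9 above 0.1). Whether same-numbered arrays share more than a number was not tested. With the replicate block the rise from E12.5 to adult was 2.68 (adjusted p = 3.74e-05) and no stage difference of B2m changed its call. Without scaling, the median over all features changed by -0.45 from E12.5 to adult.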
